A study of Mus musculus with 27 samples.

Results

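The expression of 10 circadian clock genes was examined in epididymal adipose tissue (EAT) of mice fed 3 diets. The 10 genes were Clock, Npas2, Per1, Per2, Per3, Cry1, Cry2, Nr1d1, Nr1d2 and Dbp. They were matched by symbol in the annotation of the array, and each was read from the probe set of that gene alone with the highest mean over 27 arrays. All 10 were measured, among 18193 genes that had such a probe set. The mice were male C57BL/6J, obtained at 5 weeks of age and acclimated for 1 week. The diets lasted 18 weeks, with 9 mice on a Western diet to which quercetin, a plant flavonol, was added at 0.05%, 9 on the Western diet alone, and 9 on the AIN93G control diet. The Western diet is rich in butter fat, cholesterol and sucrose. All mice lived under 12 h of light and 12 h of dark, with the dark period between 8 and 20 h, in cages of 3. Neither the cage of each mouse nor the hour at which each mouse was killed is given in the sources used here. Each mouse has 1 Affymetrix GeneChip mouse genome array, and a level below is the log2 of its normalized signal intensity.

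The circadian clock of mammalian cells is a feedback loop of transcription. CLOCK, or its relative NPAS2, pairs with ARNTL (BMAL1) and switches on genes that carry an E-box, among them the Per, Cry, Nr1d and Dbp genes. The PER and CRY proteins then shut their own activators down, the NR1D proteins (REV-ERBs) repress Arntl and its partners, and DBP carries the rhythm to other genes through a site called the D-box. In adipose tissue, as in other peripheral tissues, the loop runs in the cells themselves, and the RNA of most of these genes rises and falls over each day.

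Adipocyte markers were high on all arrays. The mean level of the 8 adipocyte markers measured, of 10 listed, lay between 12.02 and 12.33 with quercetin, between 11.93 and 12.26 on the Western diet and between 11.83 and 12.41 on the control diet. The extraction protocol in the labels names liver, whereas the titles and the study's methods name EAT. Adipoq, the adipocyte hormone adiponectin, averaged 13.40 ± 0.03 with quercetin, 13.40 ± 0.07 on the Western diet and 13.46 ± 0.04 on the control diet (SD, n = 9 each). Alb, the albumin of liver, averaged 8.27 ± 1.94 with quercetin, 8.96 ± 2.84 on the Western diet and 8.02 ± 1.59 on the control diet, and had r = −0.0271 with Dbp among mice. RNA of testis, smooth muscle or lymphocytes stood out on 6 arrays. The marker lists held no liver gene. The mean of 7 testis genes reached 8.66 in quercetin mouse 5, 8.83 in Western mouse 7 and 12.72 in control mouse 6. Smooth muscle genes were highest in control mice 2 and 4, and lymphocyte genes in control mouse 3. The other arrays were not free of such RNA. The testis mean was 7.02 in control mouse 9. The T cell mean was 5.17 in quercetin mouse 3, against 5.42 in control mouse 3. The macrophage list averaged 9.27 with quercetin, 10.05 on the Western diet and 8.43 on the control diet, and 9 of its 10 genes were higher in Western than in control mice. The 4 mesothelial markers averaged 4.34 with quercetin, 4.64 on the Western diet and 6.30 on the control diet. In tissue RNA, fewer cells of a type and less RNA per cell cannot be told apart. The deposited arrays were unscaled, with medians between 25.2 and 54.4 signal units.

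The levels of the 10 clock genes overlapped among the 3 diets. Clock, which encodes the activator of that name, had a lowest, median and highest level of 8.87, 9.18 and 9.44 with quercetin, 8.82, 9.15 and 9.58 on the Western diet, and 8.72, 9.38 and 9.87 on the control diet. Npas2, which encodes the substitute for CLOCK, had 3.46, 4.55 and 5.50 with quercetin, 3.38, 5.21 and 5.77 on the Western diet, and 3.45, 4.56 and 5.81 on the control diet. The Npas2 probe set was dim, with a mean deposited signal of 30.7, and was above the median of its array on 10 of 27 arrays, so that its values are less certain. The other 9 genes were above the array median on all 27 arrays.

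The period genes, which encode repressors of the loop, also overlapped. Per1 had a lowest, median and highest level of 7.07, 7.72 and 8.41 with quercetin, 7.43, 7.67 and 8.71 on the Western diet, and 6.75, 7.93 and 9.03 on the control diet. Per2 had 6.81, 7.24 and 7.81 with quercetin, 6.91, 7.32 and 7.72 on the Western diet, and 5.94, 7.04 and 8.04 on the control diet. Per3 had 7.57, 7.79 and 8.41 with quercetin, 6.62, 7.53 and 8.31 on the Western diet, and 7.27, 8.26 and 9.43 on the control diet. In Per3, 4 of 9 control mice lay between 7.27 and 7.53, inside the range of the Western mice.

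The cryptochromes, which repress CLOCK and ARNTL together with the PER proteins, differed less among mice. Cry1 had a lowest, median and highest level of 6.62, 6.81 and 7.35 with quercetin, 6.51, 6.82 and 7.24 on the Western diet, and 6.19, 6.81 and 7.63 on the control diet. Cry2 had 7.31, 7.79 and 8.39 with quercetin, 7.31, 7.66 and 8.20 on the Western diet, and 7.41, 8.16 and 8.55 on the control diet. The medians of Cry1 in the 3 diets were nearly equal, whereas the median of Cry2 was highest on the control diet.

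The REV-ERB genes and Dbp complete the set. Nr1d1 had a lowest, median and highest level of 7.22, 7.61 and 8.44 with quercetin, 6.71, 7.73 and 8.11 on the Western diet, and 6.64, 7.47 and 8.28 on the control diet. Nr1d2 had 10.29, 10.69 and 10.97 with quercetin, 10.04, 10.69 and 11.11 on the Western diet, and 9.78, 11.22 and 11.66 on the control diet. Dbp had 8.12, 9.54 and 10.08 with quercetin, 7.60, 9.35 and 10.30 on the Western diet, and 7.38, 9.41 and 11.13 on the control diet. Mice on 1 diet thus differed far more in Dbp than the diets did, by 3.89-fold with quercetin, 6.50-fold on the Western diet and 13.4-fold on the control diet between the lowest and the highest mouse.

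**Figure D1:**
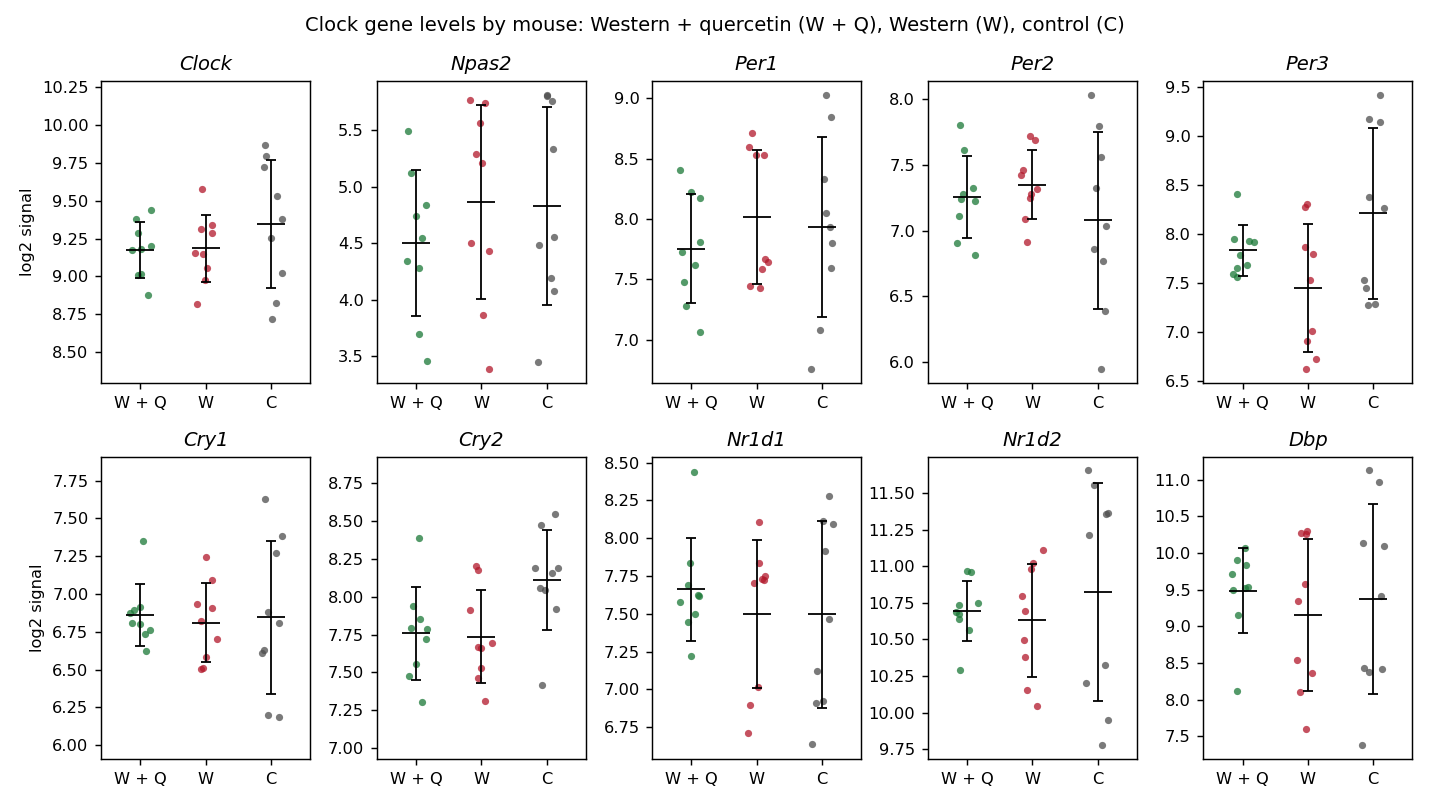
Log2 signal of the 10 clock genes in each mouse (points), with the mean and SD of each diet (bars, n = 9), for the Western diet with quercetin (W + Q), the Western diet (W) and the control diet (C). The vertical axes differ between genes. The points of the 3 diets overlap in every gene, and Dbp spreads between 7.38 and 11.13 on the control diet.

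Supplementation with quercetin left all 10 clock genes short of the threshold in mice fed the Western diet, by limma's test with an adjusted p under 0.05 over all 18193 genes. The test called 0 of 10 members, and 0.335% of all genes, 46 higher and 15 lower, in that comparison. Without normalization between arrays 3 genes were higher and 0 lower, and with medians made equal 0 were higher and 3 lower. No member had an unadjusted p under 0.05 by limma or by exact permutation, and the test that the study's methods name called 0 members and 1005 of all genes, its adjustment over genes being made for the 3 diets together. The largest differences were those of Per3, at 0.38 on the log2 scale (95% interval −0.20 to 0.97), of Npas2, at −0.36 (−1.11 to 0.39), and of Dbp, at 0.33 (−0.58 to 1.24). The median difference of the 10 genes was 0.04, against 0.02 over all genes. The interval of Clock was among the narrowest, −0.28 to 0.26, and that of Dbp left room for anything between a 0.670-fold and a 2.37-fold level with quercetin.

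With the Western diet, against the control diet, again 0 of the 10 genes passed, while 17.7% of all genes were called, 2052 higher and 1168 lower. With the medians of the arrays made equal, in place of quantile normalization, that split was 2322 higher and 584 lower. The 2 genes with an unadjusted p under 0.05 were Per3 and Cry2. Per3 averaged 7.45 ± 0.65 on the Western diet and 8.22 ± 0.87 on the control diet (SD, n = 9 each), a 0.588-fold level (95% interval 0.392 to 0.883, adjusted p = 0.0624, exact permutation p = 0.053). Cry2 averaged 7.73 ± 0.31 on the Western diet and 8.11 ± 0.33 on the control diet, a 0.771-fold level (0.629 to 0.946, adjusted p = 0.0693, exact permutation p = 0.0262). The other 8 genes differed by between −0.22 and 0.27 on the log2 scale. The median difference of the 10 genes was −0.10, and that of all genes was 0.00.

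The values of Per3 and Cry2 lay close to the threshold, and single arrays moved them across it. Per3 passed without control mouse 1, 2, 3 or 6 or without Western mouse 8 or 9, at −0.88 to −0.85 on the log2 scale and adjusted p between 0.0268 and 0.0413. Cry2 passed without control mouse 6 (−0.46, adjusted p = 0.013), Western mouse 4 (−0.43, adjusted p = 0.0401) or Western mouse 9 (−0.43, adjusted p = 0.0365). Without the 6 arrays that carried RNA of other tissues, Per3 was at −1.31 (adjusted p = 0.00392) and Cry2 at −0.57 (adjusted p = 0.0142), while 21% of all genes were called. Of the 4 control mice removed there, 3 were also low in Dbp, and the mean Dbp level of the 5 control mice kept was 10.15, against 9.37 in all 9. With Dbp as a covariate, which sets mice of equal Dbp side by side, Per3 was at −0.64 on the Western diet against the control diet (95% interval −0.90 to −0.37, adjusted p = 0.000996), and Cry2 did not pass. The fits without the 6 arrays and with Dbp were chosen after seeing the data.

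With quercetin, against the control diet, 0 of 10 genes passed, and 6.66% of all genes were called, 911 higher and 301 lower, or 268 higher and 38 lower without normalization. Cry2 alone had an unadjusted p under 0.05, by limma and by exact permutation, with 7.76 ± 0.31 with quercetin and 8.11 ± 0.33 on the control diet (SD, n = 9 each), a 0.783-fold level (95% interval 0.639 to 0.961, adjusted p = 0.139). It passed without control mouse 6 (−0.44, adjusted p = 0.0393), and without the 6 arrays it was at −0.58 (adjusted p = 0.0306). Cry2 thus had nearly the same mean on the Western diet with and without quercetin, 7.76 and 7.73, and both comparisons with the control diet share the control mice. The median difference of the 10 genes was −0.15, and that of all genes was 0.03. Per3 had a mean with quercetin, 7.84 ± 0.26, between those of the other diets, and its difference from the control diet was −0.38 (−0.97 to 0.21). With Dbp as a covariate, Per3 with quercetin was at −0.45 against the control diet (adjusted p = 0.0335), while 7.85% of all genes were called. Without the 6 arrays it was at −0.46 in that fit (adjusted p = 0.109). In the test of all 3 diets together, 0 of 10 genes passed and 16% of all genes did, and the smallest adjusted p was that of Cry2, 0.104.

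**Figure D2:**
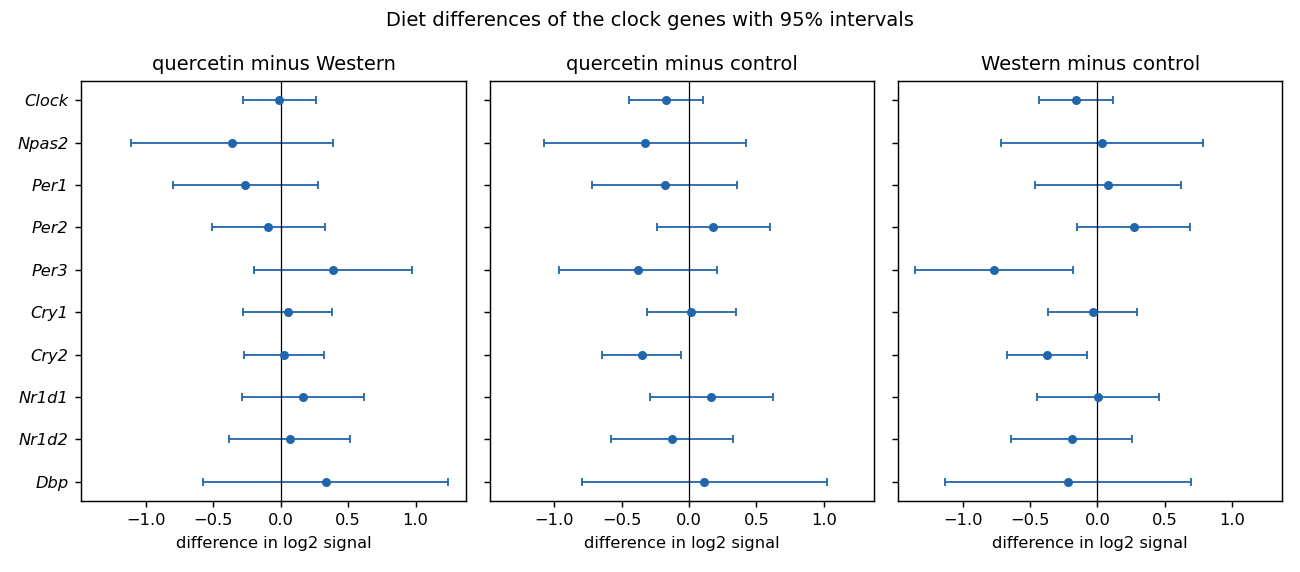
Difference in mean log2 signal (points) with its 95% interval from the limma fit (bars) for the 10 clock genes, for quercetin minus Western, quercetin minus control and Western minus control. The intervals of Per3 and Cry2 for Western minus control and of Cry2 for quercetin minus control exclude 0 before adjustment over all genes.

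Further genes of the clock gave a like picture. Of 21 listed, 19 were measured. On the Western diet, against the control diet, 1 of the 19 passed, against 17.7% of all genes. Fbxw11, which encodes an adaptor of the ubiquitin ligase that marks PER proteins for breakdown, was lower, at 11.32 ± 0.06 on the Western diet and 11.55 ± 0.24 on the control diet (adjusted p = 0.0226), a call lost without normalization, with medians made equal and in a fit of those 2 diets alone. The median of the 19 differences was −0.10. The kinases Csnk1d, at −0.27, and Csnk1e, at −0.28, which phosphorylate the PER proteins, and the deubiquitinase gene Usp2, at −0.56, did not pass. Usp2 was at −0.44 without the 6 arrays. With quercetin, 0 of the 19 passed against the Western diet and 0 against the control diet. Without the 6 arrays 7 of the 19 were called in Western against control mice, all lower, against 21% of all genes, namely Rora, Tef, Hlf, Ciart, Csnk1d, Csnk1e and Fbxw11, in the smaller set of control mice with higher Dbp.

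The clock genes differed widely in their spread between mice on the same diet. The SD of Dbp within diets was 1.01 on the log2 scale, and 0.671% of the genes with a mean above the median had a larger one. It was 0.80 for Npas2, 0.65 for Per3 and 0.60 for Per1, and 3.94% or less of those genes exceeded each, although Npas2 itself has a mean below the median. It was 0.50 for Nr1d1 and for Nr1d2 and 0.46 for Per2. Cry1 at 0.35, Cry2 at 0.32 and Clock at 0.30 varied least, and 28.3% of those genes varied more than Clock. Among the further clock genes the SD was 1.05 for Nfil3, which encodes a repressor at the D-box, 0.69 for Arntl, the partner of Clock, and 0.67 for Bhlhe40, a repressor at the E-box, but 0.22 for Csnk1d, 0.21 for Nampt, 0.20 for Rora and 0.14 for Fbxw11.

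The spread was smallest in the mice fed quercetin in most members. The exceptions were Per2, with an SD of 0.312 with quercetin and 0.263 on the Western diet, and Cry2, with 0.310 and 0.307. The SD of Per3 was 0.26 with quercetin, 0.65 on the Western diet and 0.87 on the control diet. That of Nr1d2 was 0.20 with quercetin, 0.39 on the Western diet and 0.75 on the control diet, and that of Dbp was 0.58 with quercetin, 1.03 on the Western diet and 1.30 on the control diet. The SD was lower with quercetin than on the control diet in 10 of 10 members, as it was in 76.7% of all genes, and in 8 of 10 members it was below that of the Western mice, against 42.4% of all genes. Without the 6 arrays these were 9 of 10 against 52.5% and 9 of 10 against 44.5%. Several members covary, so the counts of members are not of independent genes. These are descriptions, and the difference in spread was not tested.

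Mice on the same diet differed in the clock genes together. When each value was taken as its deviation from the mean of its diet, 15 of the 45 pairs of members were correlated over the 27 mice (permutation within diets, 100000 resamples, adjusted p under 0.05 over 45 pairs), 10 positively and 5 negatively. By rank correlation 16 pairs passed, and the 15 were among them. Without adjustment 22 pairs had p under 0.05. The permutation treats the mice of a diet as exchangeable. In a limma fit, 4 of the 10 members had an unadjusted p under 0.05 for the replicate number in the sample titles. Of all genes 5.33% did, and 0 members passed after adjustment. Of the 15 pairs, 7 passed in each of 32 other settings, 27 of which leave out 1 array, and 14 passed without the 6 arrays. The 7 were the 3 pairs among Dbp, Nr1d2 and Per3, Per1 with Per2, Per2 with Per3, and Nr1d1 with Cry2 and with Dbp.

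The closest ties joined Dbp, Nr1d2 and Per3. Dbp and Nr1d2 had r = 0.925 (rho = 0.901), Dbp and Per3 r = 0.905 (rho = 0.889), and Nr1d2 and Per3 r = 0.903 (rho = 0.927). Each of the 3 pairs had a permutation p of 1e-05, the smallest that this number of resamples can give, and an adjusted p of 0.00015. Dbp and Nr1d2 were correlated within each diet, with r = 0.899 in quercetin mice (exact permutation p = 0.00127), 0.956 in Western mice (p = 0.000187) and 0.948 in control mice (p = 0.000179). Dbp and Per3 had r = 0.481 with quercetin (exact permutation p = 0.171), 0.948 on the Western diet and 0.944 on the control diet. In the quercetin group, mouse 2 stood apart by a Dbp level of 8.12 and mouse 3 by a Per3 level of 8.41. Whether the correlation differs between the diets was not tested. Without the 2 mice farthest from the median of Nr1d2 or Per3, r was 0.921 for Dbp and Nr1d2 and 0.880 for Dbp and Per3.

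Nr1d1 moved with the same genes less closely. Its r was 0.690 with Dbp (adjusted p = 0.00508), 0.636 with Per3 (adjusted p = 0.0149) and 0.605 with Nr1d2 (adjusted p = 0.0255), the last of which did not pass without control mouse 8 or 9 or Western mouse 1, nor with probe sets averaged. Without normalization between arrays neither this pair nor Nr1d1 with Per3 passed. The values within diets were uneven, since Nr1d1 and Dbp had r = 0.0454 with quercetin, 0.855 on the Western diet and 0.746 on the control diet. Quercetin mouse 1 had the highest Nr1d1 level of its group, 8.44. Nr1d1 also moved with Cry2, with r = 0.697 (adjusted p = 0.000675), and here the values were alike in the 3 diets, at 0.785 with quercetin, 0.719 on the Western diet and 0.672 on the control diet. Cry2 and Per3 had r = 0.524 (adjusted p = 0.0199), which did not pass without control mouse 9, without the 6 arrays or without normalization.

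Per1 and Per2 formed a second tie, with r = 0.695 (rho = 0.629, adjusted p = 0.00369), at 0.713 with quercetin, 0.554 on the Western diet and 0.764 on the control diet. Per2 and Per3 had r = 0.682 (adjusted p = 0.00562). Per1 was not correlated with Dbp past the threshold (r = 0.401, adjusted p = 0.144) nor with Nr1d2 (r = 0.358, adjusted p = 0.22). Per2 and Dbp had r = 0.507 (adjusted p = 0.0578).

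The pairs past the threshold that held an activator were negative. Npas2 had r = −0.667 with Nr1d2 (adjusted p = 0.0048), −0.637 with Dbp (adjusted p = 0.00635) and −0.617 with Per3 (adjusted p = 0.0113), and each was negative within all 3 diets. These 3 pairs did not pass when all probe sets of a gene were averaged. In that setting dim probe sets count equally. The dimmest had a mean signal of 7.23 for Npas2, 10.3 for Per3 and 20.7 for Nr1d2. Why the pairs were lost was not tested. Clock did not pass with Nr1d2 (r = −0.461, adjusted p = 0.144) or Per3 (r = −0.492, adjusted p = 0.0843). It had r = −0.607 with Per1 (adjusted p = 0.0149), which did not pass without normalization (r = −0.329) or with a shift to equal medians (r = −0.423), and not without control mouse 9 (r = −0.521, adjusted p = 0.0553). The r of Clock and Per1 was 0.140 with quercetin, −0.504 on the Western diet and −0.857 on the control diet. With the means of the replicate numbers removed it was −0.234 and did not pass. Clock and Dbp had r = −0.557 (adjusted p = 0.0388). This pair was lost with medians made equal and with the means of the replicate numbers removed. It was also lost in 10 of the 27 settings that leave out 1 array. These removed control mice 1, 2, 5, 7, 8 or 9, Western mice 2, 7 or 8 or quercetin mouse 2. Cry1 was the member with no pair past the threshold, its strongest value being r = −0.414 with Nr1d1 (adjusted p = 0.144).

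**Figure D3:**
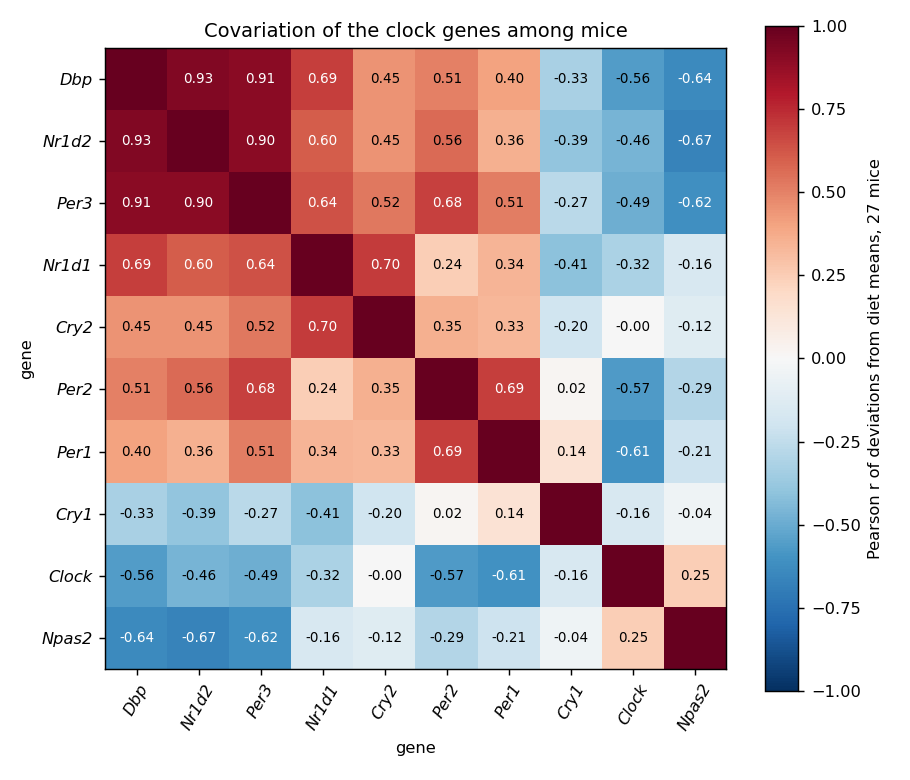
Pearson r of the deviations from the diet means over 27 mice for each pair of clock genes (numbers and colours, red positive and blue negative). Dbp, Nr1d2 and Per3 form the block at the upper left, with r between 0.903 and 0.925, and Clock and Npas2 are negative against them.

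The ties with Dbp stood at the ends of the distribution over the whole array. Among the 18192 other genes, the 3 with the largest absolute r with Dbp were Tef (0.939), Nr1d2 and Per3, and no further gene exceeded 0.9. TEF is a close relative of DBP that binds the same site. Of the 9 other members, 6 had an absolute r over 0.5, against 4.83% of all genes. Of all genes, 1% had a larger absolute r than Npas2, 0.467% a larger one than Nr1d1, and 20.2% a larger one than Cry1. Arntl, whose protein pairs with CLOCK and NPAS2, had r = −0.836 with Dbp, and 4 genes of the array had a larger absolute r. Within diets it was −0.764 with quercetin, −0.944 on the Western diet and −0.813 on the control diet. Rora, which encodes the activator that competes with the REV-ERBs, had r = 0.723, Ciart, a repressor of the loop, 0.722, Bhlhe40 0.609 and Nfil3 −0.627. Usp2, Wee1 and Nampt, which are known as clock outputs, had r between 0.00625 and 0.0587. The Usp2 level of control mouse 6, the mouse with the highest testis markers, was 9.35, the next control value being 7.88. These values share the 27 arrays and are given without a test.

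Genes most like Dbp among those above the median mean were, after Tef, Nr1d2 and Per3, Ppargc1b (r = 0.822), a coactivator of mitochondrial genes, Zfp945 (0.815) and Zfp598 (0.811). The most opposed were Leo1 (−0.838), a subunit of a complex that travels with RNA polymerase, Arntl, Nt5m (−0.824), a mitochondrial nucleotidase, Cacybp (−0.804), Manf (−0.801), which is induced by stress of the endoplasmic reticulum, and Ift20 (−0.781). Genes most like Npas2 were Vgll3 (0.763), Ehd3 (0.755), Gm4876 (0.751), Sash1 (0.748), Cdkn1a (0.732), the cell cycle inhibitor p21, and Mob3a (0.731). The most opposed to Npas2 were Rev1 (−0.705), Slc22a5 (−0.696), a carnitine transporter, Marchf7 (−0.685), Nr1d2, Tef (−0.656) and Gstt2 (−0.638).

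**Figure D4:**
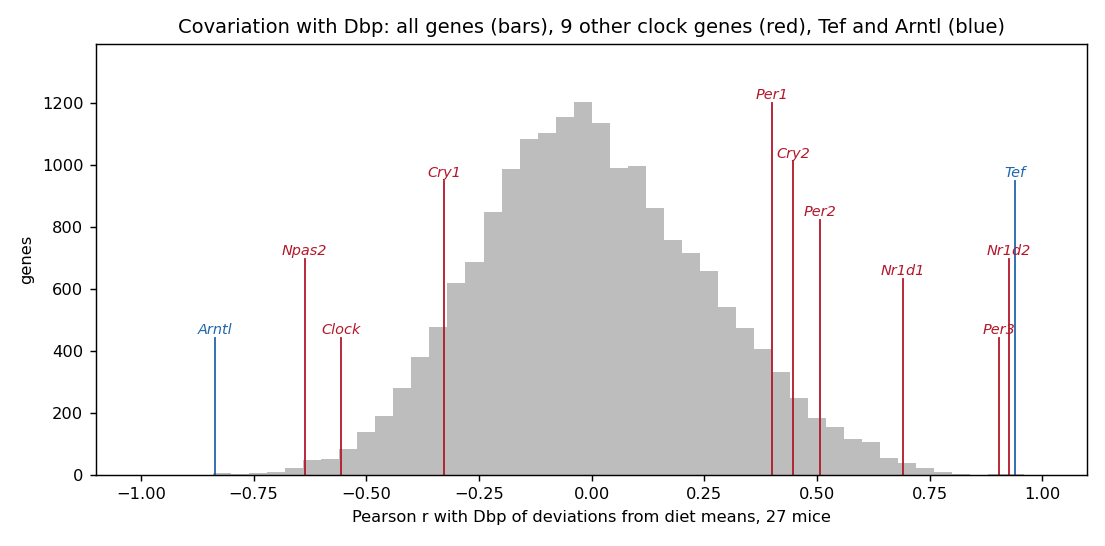
Pearson r with Dbp of the deviations from the diet means over 27 mice for all other genes (grey bars, number of genes), with the 9 other members (red lines) and Tef and Arntl (blue lines) marked; line heights only separate the labels. Per3, Nr1d2 and Tef lie above 0.9, where no other gene of the array lies, and Arntl lies at −0.836.

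Several probe sets of a gene gave a check on these values. The 10 genes had 23 probe sets of their own, of which 0 were called in any of the 3 comparisons between diets. The second probe set of Dbp had r = 0.987 with the first. Of the 6 probe sets of Per3, the 4 brightest had r between 0.905 and 0.935 with Dbp. Their differences between the Western and the control diet were −0.76, −0.64, −0.45 and −0.42. In the same order, those between quercetin and the control diet were −0.38, −0.36, 0.08 and −0.18, so their sign depended on the probe set. The fits with Dbp as a covariate read Per3 from the brightest alone. The second probe set of Per2, also above the array median on all 27 arrays, had r = 0.821 with the first and 0.661 with Dbp, and its difference between the Western and the control diet was −0.06, against 0.27. The 3 bright probe sets of Clock were less alike, since the second and the third had r = 0.637 and 0.433 with the first, and their differences between the Western and the control diet were −0.05 and −0.03, against −0.16. The second probe set of Nr1d2, with a mean signal of 20.7, had r = 0.472 with the first, whose signal was 1739.

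The bases before the start of transcription are shown for 3 members that behaved differently among mice, namely Per3, which followed Dbp, Per1, whose tie to Dbp did not pass, and Cry1, which had no pair past the threshold. The sequences are from RefSeq on the build GRCm38.p6, where 9 of the 10 members were found. Each shows the 250 bases up to the start, 5′ to 3′ on the strand of the gene, with D-boxes and E-boxes in capitals. Searched were the D-box as TTATGTAA, TTACATAA or TTACGTAA, which DBP and TEF bind, the E-box CACGTG, and the related E′-box AACGTG or CACGTT, on both strands. Also searched were the ROR element (TAGGTCA or TGGGTCA), found only in Nfil3 of the clock genes, and the CRE (TGACGTCA), found only in Hlf.

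Per3, chr4:151044666-151044915, minus strand: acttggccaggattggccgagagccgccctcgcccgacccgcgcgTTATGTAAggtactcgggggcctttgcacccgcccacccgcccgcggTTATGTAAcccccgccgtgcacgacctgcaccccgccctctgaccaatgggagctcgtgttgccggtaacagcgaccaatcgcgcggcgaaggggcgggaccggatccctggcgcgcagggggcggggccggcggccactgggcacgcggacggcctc
Per1, chr11:69098699-69098948, plus strand: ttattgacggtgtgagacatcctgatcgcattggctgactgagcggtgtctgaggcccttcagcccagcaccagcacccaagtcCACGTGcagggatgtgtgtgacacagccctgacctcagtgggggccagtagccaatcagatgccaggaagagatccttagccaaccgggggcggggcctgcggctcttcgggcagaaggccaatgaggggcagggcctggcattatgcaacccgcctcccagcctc
Cry1, chr10:85185055-85185304, minus strand: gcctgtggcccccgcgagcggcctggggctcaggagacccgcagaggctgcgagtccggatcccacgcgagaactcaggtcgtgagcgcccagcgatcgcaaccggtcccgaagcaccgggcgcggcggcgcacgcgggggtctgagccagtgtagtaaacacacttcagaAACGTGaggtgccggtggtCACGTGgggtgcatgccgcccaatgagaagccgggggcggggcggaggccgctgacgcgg

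In the Per3 window 2 D-boxes were found, at bases −205 to −198 and −158 to −151, where −1 is the last base before the start, whereas 0.931% of the 32851 windows of this length in the table hold a D-box. The Per1 window shown, the one with a match of the 2 listed for that gene, holds 1 E-box, at −166 to −161, and the Cry1 window holds an E-box at −60 to −55 and an E′-box at −79 to −74. The E-box was in 6.02% of all windows and the E′-box in 3.85%. Cry2 and Nr1d1 each had 1 E′-box, and of the further clock genes each of the 2 Tef windows had 1 E-box, Ciart had 3 and Bhlhe41 had 1, Rorb had 1 E′-box, and Timeless, with r = −0.119 with Dbp, had 1 D-box. Dbp, Nr1d2, Npas2 and Clock had none of these letters in their windows. Bases outside the windows were not searched. A match is a description of the letters, and none was tested for binding.

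Per1 moved with genes induced by glucocorticoids. The mean level of 7 glucocorticoid-induced genes, a list that does not hold Per1, had r = 0.776 with Per1 over the 27 mice (rho = 0.790, permutation p = 2e-05, adjusted p = 0.00056 over 28 relations), at 0.831 with quercetin, 0.655 on the Western diet and 0.827 on the control diet, and 0.735 without the 2 mice farthest from the median of Per1. Transcription of Per1 responds to glucocorticoids directly through a receptor site in the gene. Whether this underlies the correlation was not tested. The list was uneven. Sgk1, which encodes a kinase induced by glucocorticoids and serum, had r = 0.858, the largest absolute value with Per1 of all 18192 genes, and Klf9, a transcription factor induced by glucocorticoids, had r = 0.652. Fkbp5, at 0.185, Tsc22d3, at 0.261, Zbtb16, at 0.394, and the metallothioneins Mt1 and Mt2, at 0.234 and 0.152, were weaker. Of all genes, between 10.3% (for Zbtb16) and 52.4% (for Mt2) had a larger absolute r with Per1 than these. Genes outside the list, such as Apold1 (0.805) and Klf2 (0.784), had a larger r with Per1 than Klf9. The ties were not limited to Per1. Sgk1 had r = 0.819 with Per2, Zbtb16 had r = 0.662 with Per2, and Klf9 had r = 0.699 with Per2, 0.710 with Per3 and 0.625 with Dbp.

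A list of 9 immediate early genes, which respond to many stimuli within minutes, also moved with Per1, at r = 0.596 (rho = 0.647, adjusted p = 0.0426). Dusp1, a phosphatase gene that responds to both kinds of signal, had r = 0.686 and Atf3 r = 0.175. Dbp was not correlated past the threshold with either list, at r = 0.235 (adjusted p = 0.485) and r = −0.0484 (adjusted p = 0.866). The glucocorticoid list averaged 10.55 with quercetin, 10.74 on the Western diet and 10.56 on the control diet, and of its genes Mt1 and Mt2 were higher in Western than in control mice.

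**Figure D5:**
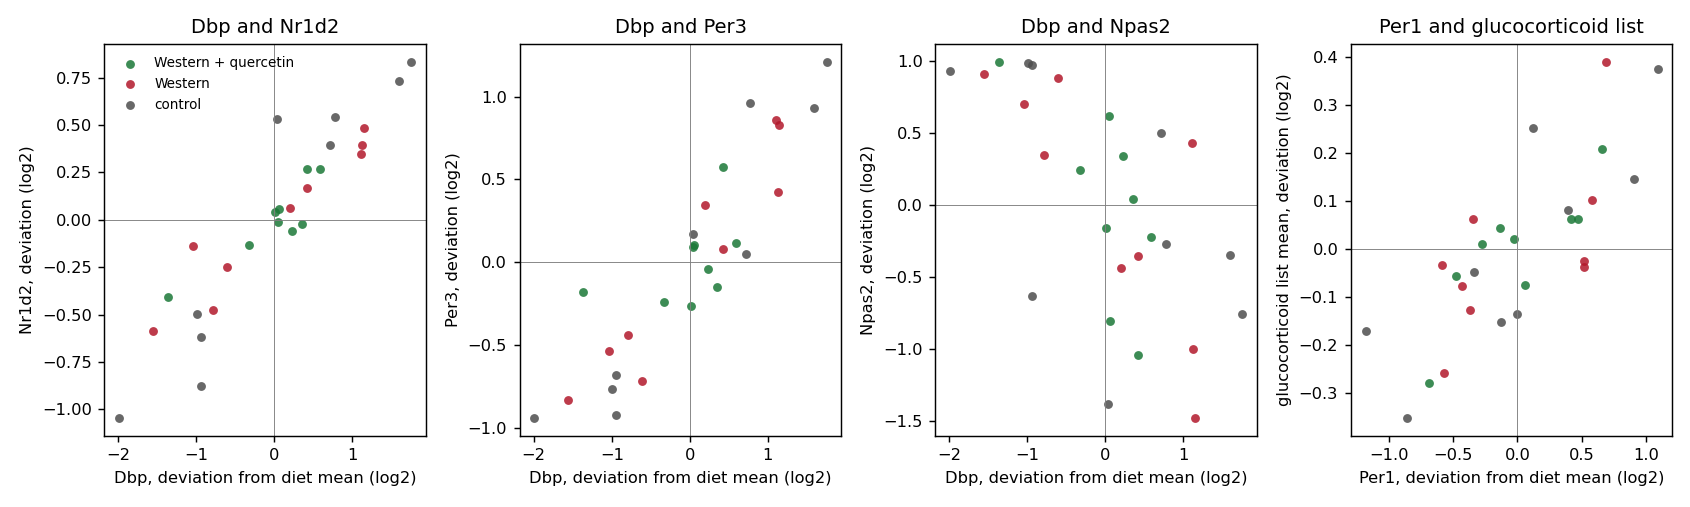
Deviations from the diet mean (log2) of Nr1d2, Per3 and Npas2 against Dbp, and of the mean of the glucocorticoid-induced genes against Per1, 1 point per mouse, coloured by diet (n = 9 each). Nr1d2 and Per3 rise with Dbp (r = 0.925 and 0.905), Npas2 falls (r = −0.637), and the glucocorticoid list rises with Per1 (r = 0.776).

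Markers of other cells and the quality of the RNA were set beside Dbp and Per1 in the same way. None of the 9 cell and tissue lists was correlated with Dbp or Per1 past an adjusted p of 0.05. The nearest was the adipocyte list, with r = 0.510 with Dbp (adjusted p = 0.153) and 0.516 with Per1 (adjusted p = 0.153), and the macrophage list had r = −0.223 with Dbp (adjusted p = 0.445). The ratio of the 3′ to the 5′ actin probe sets, which rises as RNA degrades, averaged 1.16 with quercetin, 0.81 on the Western diet and 1.05 on the control diet on the log2 scale, and had r = 0.399 with Dbp (adjusted p = 0.26). The log2 median of the unscaled array had r = −0.482 with Dbp (adjusted p = 0.185). Within the control diet alone r with Dbp was 0.636 for the adipocyte list, 0.715 for the epididymis list and −0.807 for the T cell list. It was −0.702 for the macrophage list, 0.629 for the actin ratio and −0.656 for the array median. In the same order r was −0.0298, 0.055, 0.0282, 0.412, 0.147 and −0.388 with quercetin. On the Western diet it was 0.527, −0.268, 0.156, −0.123, 0.0786 and −0.173. The part of these measures in the covariation of the clock genes was not tested.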

How the data were processed

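RNA of the EAT of 27 mice was hybridized to 1 array per mouse. The deposited values are linear signal intensities of probe sets, which the authors made with MAS5 and GeneSpring and left unscaled between arrays. Here they were quantile-normalized, values under 1 were set to 1, and log2 was taken. Probe sets annotated to several genes (932 of 45101) were left out. All genes were fitted in limma 3.58.1 (R 4.3.3) with 1 mean per diet over 27 arrays, a variance trend and Benjamini-Hochberg adjustment over 18193 genes at 0.05. For pairs of genes, deviations from diet means were permuted within diets 100000 times, and exactly within 1 diet. The named genes were the 10 members, a list of further clock genes, and the 6 genes most like and most opposed to Dbp and to Npas2. Members and lists were chosen with earlier results of these data known. Alternatives were another scaling, floor, pseudocount, filter, choice of probe set, limma setting or test, a block for the replicate number, and leaving out single arrays. The code was tested on simulated data of the Western diet against the control diet (18193 genes). There 95 of 100 changes of 1 log2 unit and 69 of 100 of 0.5 were recovered. The changes were planted in genes above the median mean, with independent normal noise. These counts are therefore not the power for the clock genes. Plots were made in matplotlib 3.10.9 under Python 3.11.15. Replicates are separate mice. The tests treat the mice of a diet as independent and take no account of shared cages or of the hour of killing.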

Additional observations from a re-analysis of the deposited data

Results flagged for a closer look

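In 10 of the 87 groups of 9 mice examined (29 clock genes in 3 diets), 1 mouse lay far from the others, by a gap that took up more of the range than Dixon's test allows at its 95% level. Chance alone gives about 1 such group in 20. Among the 10 members these were quercetin mouse 3 with a high Per3 level (8.41, the next being 7.95), quercetin mouse 2 with a high Cry1 level (7.35, the next being 6.91) and a low Dbp level (8.12, the next being 9.16), and quercetin mouse 1 with a high Nr1d1 level (8.44, the next being 7.84). All 4 values were in the quercetin group, which had the smallest spread in each of these genes. Among the further clock genes, control mouse 6, the mouse with the highest testis markers, was low in Bhlhe41 (0.56), Csnk1d (9.10) and Fbxw11 (11.01). Quercetin mouse 7 was low in Btrc (5.53), quercetin mouse 6 in Fbxw11 (11.32) and Western mouse 3 in Fbxl21 (1.18). The probe sets of Bhlhe41 and Fbxl21 were above the median of no array.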

How the results depend on the processing

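The count of 10 members called was 0 in each comparison and moved with the setting. For the Western against the control diet it was 1 without normalization, with the replicate block, with the exact permutation test (not adjusted) and with Dbp as a covariate with or without the 6 arrays carrying RNA of other tissues. It was 2 among genes above the median mean, with array weights and without the 6 arrays, and 0 to 2 when 1 array was left out. For quercetin against control it was 1 with array weights, by permutation, without the 6 arrays and with Dbp as a covariate, and 0 to 1 when 1 array was left out. For quercetin against Western it was 0 in each of the settings run. For the 3 diets together it was 2 with array weights and without the 6 arrays, 1 with Dbp as a covariate with or without the 6 arrays, and 0 to 1 when 1 array was left out. Each such call between 2 diets was of Per3 or Cry2. Of all genes, 21% were called for Western against control without the 6 arrays, and 17.6% with Dbp as a covariate. For quercetin against control these shares were 8.08% and 7.85%. The counts of members in these fits lie near these shares. Without normalization 1108 of all genes were higher and 709 lower for Western against control. For the remaining settings no share of all genes is given beside the counts. None of the counts is a result about the members or the further clock genes. Among the further clock genes, the count for Western against control was 1, and 0 without normalization, with medians made equal or in a fit of only the 2 diets, 2 among genes above the median mean and with Dbp as a covariate without the 6 arrays, 4 with array weights, 7 without the 6 arrays, and 1 to 4 when 1 array was left out. For quercetin against control it was 0, and 1 with array weights, 3 without the 6 arrays with or without Dbp as a covariate, and 0 to 1 when 1 array was left out.

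Differences that were near 0 and not called changed sign. For Western minus control these were, without normalization, Npas2 (−0.075) and Nr1d1 (−0.044), and with medians made equal Cry1 (0.013). They were Npas2 (−0.014) with a floor of 32, Nr1d1 (−0.0021) with a pseudocount of 16, and Per2 (−0.00018) and Nr1d2 (0.089) with probe sets averaged. With array weights they were Npas2 (−0.040), Cry1 (0.049) and Nr1d1 (−0.18). Without the 6 arrays they were Clock (0.032), Per1 (−0.23), Per2 (−0.069), Cry1 (0.13) and Nr1d1 (−0.44), with Dbp as a covariate Npas2 (−0.076), and with both Npas2 (−0.57), Cry1 (0.079) and Nr1d1 (−0.068). For quercetin minus Western they were Clock without normalization (0.0081), with probe sets averaged (0.032), with array weights (0.011), with Dbp as a covariate (0.043) and with both (0.020). Cry1 (−0.027), Cry2 (−0.079) and Nr1d2 (−0.030) did so with medians made equal, Nr1d2 (−0.19) with probe sets averaged, Cry2 (−0.0093) without the 6 arrays, Cry2 (−0.024) and Nr1d2 (−0.087) with Dbp as a covariate, and Cry2 (−0.072) and Nr1d2 (−0.098) with both.

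When 1 array was left out, Western minus control ranged over −0.14 to 0.22 for Npas2, −0.067 to 0.22 for Per1, −0.12 to 0.064 for Cry1, −0.11 to 0.10 for Nr1d1 and −0.47 to 0.00033 for Dbp. Quercetin minus Western ranged over −0.057 to 0.038 for Clock, −0.010 to 0.10 for Cry1, −0.056 to 0.081 for Cry2 and −0.0085 to 0.13 for Nr1d2. The cause of these changes was not tested. The number of pairs that covary was 15, and 11 to 22 over the settings run, leaving out 1 array included.

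The replicate numbers, which the 3 diets share, did not pair the mice over all genes. This check cannot show whether single genes, such as Dbp, differ with the number. Of 27 pairs of the same number 4 had a correlation over 0.1, the median was −0.0045, and 2 arrays correlated best with their own number. With the number as a block 1 member was called for Western against control, Per3 (adjusted p = 0.0494 by limma). With the means of the numbers removed, 22 of 45 pairs passed. The permutation there still ignored the number, so its p-values tend to be too small. The count of 22 therefore does not show that more pairs covary. The 22 pairs hold the 15 but for Clock with Per1 (r = −0.234, adjusted p = 0.427 by permutation) and Clock with Dbp. Depth cannot be stated for arrays, and 9 mice per diet limit the precision. A level below the array median, as for Npas2, is the least certain.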

Other observations

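The titles of the samples number the mice 1 to 9 within each diet, and the sources used here do not say what the number marks. Dbp differed with it. On the Western diet the Dbp level was 7.60, 8.37 and 8.11 in mice 1, 2 and 3, and 10.28, 10.26 and 10.30 in mice 7, 8 and 9. On the control diet it was 8.43, 8.38 and 7.38 in mice 1, 2 and 3, and 10.09, 10.97 and 11.13 in mice 7, 8 and 9. With quercetin it was 9.53, 8.12 and 9.90 in mice 1, 2 and 3, and 9.84, 10.08 and 9.71 in mice 7, 8 and 9. The deviation from the diet mean, averaged over the 3 mice of a number, was −0.82, −1.05 and −0.87 for numbers 1, 2 and 3, 0.05, 0.06 and −0.23 for numbers 4, 5 and 6, and 0.73, 1.10 and 1.04 for numbers 7, 8 and 9. For Nr1d2 it was −0.49, −0.46 and −0.31 for numbers 1, 2 and 3, and 0.26, 0.45 and 0.42 for numbers 7, 8 and 9. Per1 was at −0.35, −0.41 and 0.50 for numbers 1, 2 and 3, at −0.81, −0.14 and 0.29 for numbers 4, 5 and 6, and at −0.28, 0.71 and 0.49 for numbers 7, 8 and 9. This was noticed in the data. In a limma fit with the number as a factor beside the diet, Per1 had an unadjusted p of 0.000245 (adjusted p = 0.26) and Dbp one of 0.00234 (adjusted p = 0.591). Of the 10 members 4 had an unadjusted p under 0.05, and 5.33% of all genes did.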
